A study of Fukomys damarensis with 47 samples.

Results

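*ENG* and *TGFBR3* encode the co-receptors endoglin and betaglycan of the transforming growth factor beta (TGF-beta) pathway, and their RNA levels were followed in cells cultured from the bone marrow of Damaraland mole-rats (*Fukomys damarensis*). Both were chosen by gene name, with earlier results from the same counts already known, so no p-value adjusted over the pair alone is given. They are 2 of the 33562 genes in the count table, under the identifiers ENSFDAG00000002112 (*ENG*) and ENSFDAG00000002781 (*TGFBR3*), and both were among the 11047 genes with enough counts to be tested. The table gives no gene symbols, so symbols were taken from the list of tested genes that accompanies the paper.

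RNA-Seq was run on 47 cultures from 16 female mole-rats, each aged between 1003 and 1232 days and each from 1 of 8 natal colonies. Queens (5 animals, 15 libraries) were breeding females. Helpers (7 animals, 22 libraries) and solitaires (4 animals, 10 libraries) did not breed, and together they are the nonbreeders. The solitaires had been kept alone. Cells came either from pooled long bones (26 libraries) or from pooled lumbar vertebrae (LV; 21 libraries), and each culture received 10 nM estradiol or vehicle for 24 hr. All cultures were grown with fetal bovine serum and recombinant human fibroblast growth factor-basic, and all received a ROCK inhibitor until the estradiol or vehicle step. Cells were kept for adherence, so mesenchymal stromal cells were enriched but other marrow cells remained.

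TGF-beta ligands bind a pair of kinase receptors, which phosphorylate SMAD proteins that then move into the nucleus and regulate genes. Endoglin and betaglycan carry no kinase of their own: they bind ligand at the cell surface and change how it reaches the signalling receptors. Endoglin is abundant on endothelial cells and is also 1 of the surface proteins by which mesenchymal stromal cells are recognised. Betaglycan is a proteoglycan that presents ligand to the signalling receptors and also binds inhibin, while its shed form can hold ligand away from cells. In bone, TGF-beta is stored in the matrix and released during resorption, and it acts on stromal cells and on cells of the osteoblast lineage.

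The libraries held between 5329563 and 16327339 counts. All 9 stromal and osteoblast marker genes were detected in every library, and their summed level lay between 342 and 6917 counts per 1000000 counts of the library (CPM), but all also held leukocyte RNA, with a summed level of 12 markers between 46.5 and 4140 CPM. The 4 highest leukocyte sums were those of the long bone libraries of the queens MAF006 and NOF009. The lowest stromal sums, 342 and 429 CPM, were in the long bone libraries of MAF006. In bulk RNA, fewer cells that express a gene and less RNA per cell cannot be told apart.

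*ENG* varied far more between cultures than *TGFBR3* did. The level of *ENG* ran from 0.493 CPM (3 counts; 95% Wilson interval 0.168 to 1.45 CPM) in the LV vehicle library of the solitaire WEF001 to 53.8 CPM (879 counts; interval 50.4 to 57.5 CPM) in the LV vehicle library of the queen WAF014, with a median of 7.52 CPM. The ratio of these extremes was 109, with an exact 95% counting interval of 37.2 to 530. The level of *TGFBR3* ran from 4.88 CPM (51 counts; interval 3.71 to 6.42 CPM) in vehicle-treated long bone cells of the queen LAF007 to 31.7 CPM (320 counts; interval 28.4 to 35.4 CPM) in the LV estradiol library of the helper NOF007, with a median of 10.3 CPM. Its extremes differed 6.50-fold (interval 4.82 to 8.91). These intervals cover counting error only. On the log2 CPM scale, the standard deviation over the 47 libraries was 1.45 for *ENG*, above that of 94.2% of tested genes, and 0.60 for *TGFBR3*, above that of 54.3%. The median over all tested genes was 0.56. *TGFBR3* reached 2 CPM in all 47 libraries and *ENG* in 41, and 4 libraries held fewer than 10 counts of *ENG*.

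**Figure D1:**
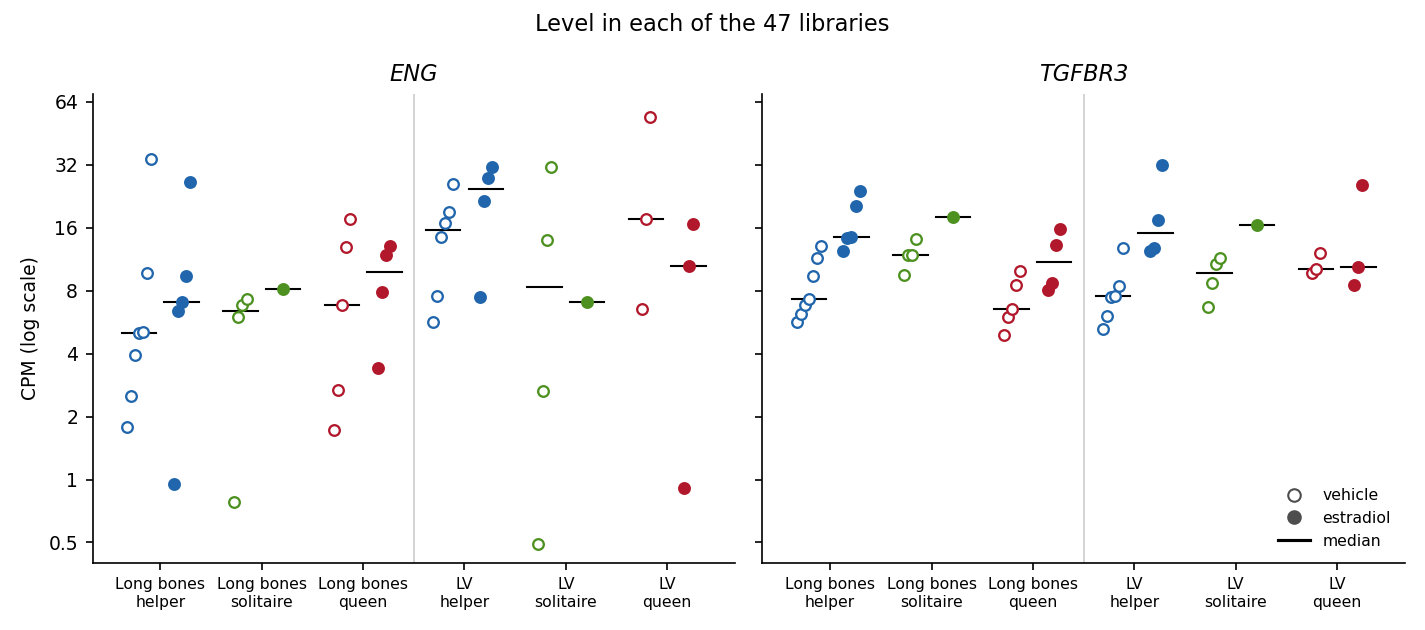
CPM of *ENG* (left) and *TGFBR3* (right) on a log scale in each of the 47 libraries, by bone type, social status and treatment; open circles are vehicle, filled circles estradiol, and bars are medians. *ENG* spreads from 0.493 to 53.8 CPM, while *TGFBR3* stays between 4.88 and 31.7 CPM and the estradiol circles of helpers lie above most vehicle circles.

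Ordered by mean log2 CPM (± SD over libraries), *ENG* was highest in LV with estradiol (3.46 ± 1.55, n = 8) and LV with vehicle (3.46 ± 1.63, n = 13), then in long bones with estradiol (2.91 ± 1.20, n = 10) and long bones with vehicle (2.45 ± 1.29, n = 16). Each step in this order was smaller than the standard deviation of either neighbour. For *TGFBR3* the order was LV with estradiol (3.97 ± 0.64), long bones with estradiol (3.85 ± 0.49), LV with vehicle (3.16 ± 0.39) and long bones with vehicle (3.13 ± 0.46). Here the step from the estradiol groups to the vehicle groups was larger than the standard deviation of either neighbour, and the steps within each treatment were smaller. The order of these means, over partly different animals, thus followed bone type for *ENG* and treatment for *TGFBR3*. Only 5 animals had estradiol libraries from both bone types. In those, *ENG* was higher in LV in 3 (log2 differences -2.84 to 1.94, mean 0.11) and *TGFBR3* in 4 (-0.22 to 1.64, mean 0.51).

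To compare bone types within an animal, the vehicle libraries of the 13 animals with both were used. *ENG* was higher in LV than in long bones in 9 of the 13 animals. In queens it was 53.8 against 6.86 CPM (WAF014), 6.57 against 1.72 CPM (LAF007) and 17.5 against 17.5 CPM (DVF007), giving LV and then long bones. In helpers it was 25.9 against 2.51 CPM (WAF011), 16.8 against 5.06 CPM (NOF007), 5.65 against 1.78 CPM (WEF002), 14.5 against 5.01 CPM (LAF008) and 18.98 against 9.70 CPM (G4F019), while the helper DVF008 went the other way, with 7.52 against 34.2 CPM. The solitaires were split. G4F020 had 31.2 against 7.30 CPM and G1F025 had 14.03 against 5.99 CPM, whereas MAF003 had 2.64 against 6.81 CPM and WEF001 had 0.493 against 0.785 CPM, from 3 and 7 counts. The LV and long bone ranges overlapped over most of their length.

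The fitted difference in *ENG* between LV and long bones was 1.12 on the log2 scale (standard error 0.41; 95% interval 0.25 to 1.98), which corresponds to 2.17-fold, but its edgeR adjusted p of 0.161 missed the 10% false discovery rate (FDR). Of all tested genes, 6.83% passed this threshold in the comparison (755 genes, 308 of them higher in LV). The size of the *ENG* difference changed little with the method, yet the call did: DESeq2's Wald test gave 1.099 with an adjusted p of 0.0300, and edgeR without the filter on low counts gave 1.13 with an adjusted p of 0.0240. Over all alternatives the adjusted p ran from 0.0240 to 0.529. Leaving out the helper DVF008 alone gave 1.38 with an edgeR adjusted p of 0.0312, and leaving out the solitaire MAF003 alone gave 1.31 with 0.0810. LV had been incubated in Collagenase P and long bones had not, so bone type and this step cannot be told apart. The leukocyte markers moved in the opposite direction to *ENG* in this comparison: 4 of the 12 (*LAPTM5*, *CORO1A*, *LCP2* and *FLT3*) fell in LV, 11 of the 12 had a negative fold change, and the summed level ran from 46.5 to 1027 CPM in LV vehicle libraries and from 83.6 to 3022 CPM in long bone vehicle libraries. No marker of this list was at 0 in more than 3 of the 47 libraries. Of the 9 stromal and osteoblast markers, 7 also had a negative fold change (median -0.20, against -0.04 over all tested genes). *PHEX* of that list was called, higher in LV by 0.62. All 3 smooth muscle markers had a negative fold change. The part of any of these cells in the *ENG* difference was not tested.

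*TGFBR3* showed no common shift between bone types in these vehicle libraries. The fitted log2 difference was -0.00 (standard error 0.19; 95% interval -0.41 to 0.40; edgeR adjusted p = 0.999), an interval that holds no 2-fold change in either direction. Individual animals differed nonetheless. *TGFBR3* was higher in LV in all 3 queens, with 12.1 against 6.01 CPM in DVF007, 10.2 against 4.88 CPM in LAF007 and 9.74 against 6.54 CPM in WAF014. Among the 10 nonbreeders it was higher in LV in the helpers LAF008 (12.7 against 5.66 CPM) and WAF011 (8.42 against 7.29 CPM), and lower in the other 8, by 0.03 to 0.81 on the log2 scale.

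**Figure D2:**
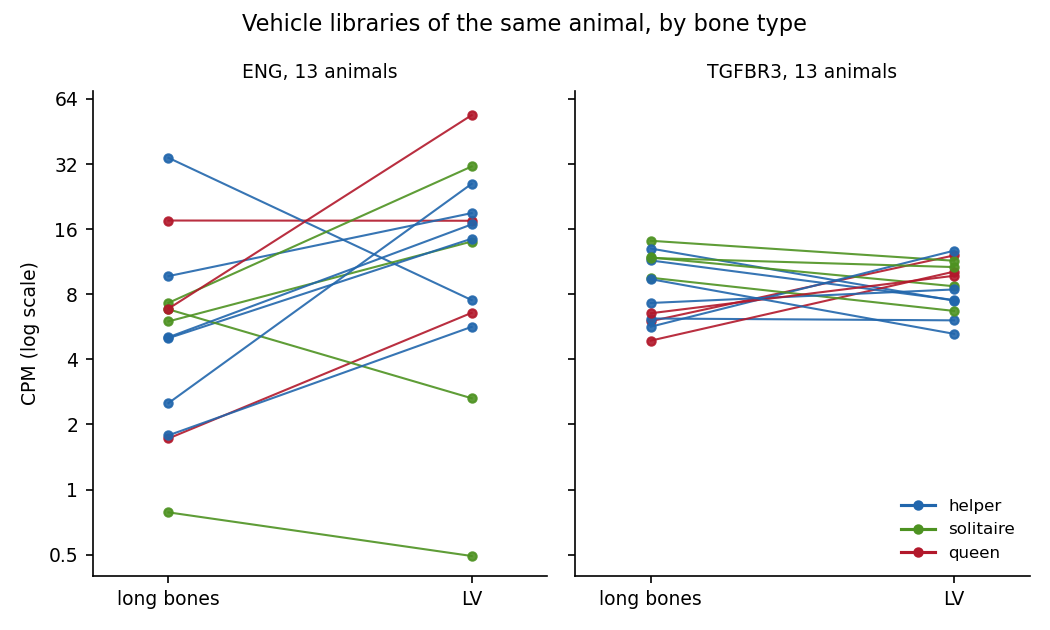
CPM (log scale) of *ENG* (left) and *TGFBR3* (right) in the long bone and LV vehicle libraries of 13 animals; a line joins the libraries of an animal and its colour gives social status. *ENG* is higher in LV in 9 of 13 animals, whereas *TGFBR3* is higher in LV in all 3 queens and in 2 of 10 nonbreeders.

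The difference between queens and nonbreeders in this *TGFBR3* contrast was 1.03 on the log2 scale (standard error 0.37; 95% interval 0.26 to 1.81), with an edgeR adjusted p of 1.00, and 0% of tested genes were called. By unadjusted p it ranked 69 of 11047. The 3 queens came from the colonies DV, LA and WA, and so did the 2 nonbreeders with more *TGFBR3* in LV. Within these colonies, the LV minus long bone difference of the queen exceeded that of the sister by 1.01 in DV and by 0.36 in WA, and it was below that of the sister by 0.11 in LA (the log2 difference was -0.11). All 6 animals of these colonies were 1003 to 1006 days old, and 5 of them had more *TGFBR3* in LV. The 7 animals of the other 5 colonies, all nonbreeders, were 1076 to 1232 days old, and 0 of them did.

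In the libraries of these 13 animals, long bone levels did not overlap between the 2 sets of colonies, with 4.88 to 7.29 CPM in DV, LA and WA and 9.39 to 14.1 CPM in the others, whereas LV levels overlapped (6.06 to 12.7 CPM and 5.25 to 11.4 CPM). Long bone vehicle libraries without an LV partner did not keep to this separation: G1F022 had 6.86 CPM and MAF006 had 8.50 CPM. The vehicle libraries of DV, LA and WA were also deeper, with 8516460 to 16327339 counts against 5672201 to 10273237. Breeding status, colony, age and depth cannot be told apart here beyond the 3 sister pairs. This grouping by colony was made after the values were seen, and no test was run on it. How many other tested genes separate the 2 sets in the same way was not counted. The separation is therefore not shown to be particular to *TGFBR3*. For *ENG* the difference between queens and nonbreeders in the same contrast was 0.56 (standard error 0.96; 95% interval -1.48 to 2.61; edgeR adjusted p = 1.00).

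*TGFBR3* was higher with estradiol than with vehicle in 15 of 17 pairs of libraries. These pairs came from 13 animals, some of which entered once per bone type, so they are not independent. To ask whether the hormone changed either gene, the estradiol and vehicle libraries of an animal were compared, in 10 animals for long bones and 7 for LV. The log2 differences of *TGFBR3* had a standard deviation of 0.42 in long bones and 0.85 in LV. In the long bones of helpers it was 12.4 against 6.18 CPM (DVF008), 14.2 against 6.86 CPM (G1F022), 24.0 against 11.5 CPM (NOF007), 14.4 against 7.29 CPM (WAF011) and 20.2 against 9.39 CPM (WEF002), giving estradiol and then vehicle. The log2 differences of the 5 helpers lay close together, between 0.96 and 1.09. The solitaire G4F020 had 17.9 against 11.8 CPM. Queens spread more widely, with 13.3 against 4.88 CPM (LAF007), 15.8 against 9.90 CPM (NOF009), 8.65 against 6.54 CPM (WAF014) and 8.07 against 8.50 CPM (MAF006), which are log2 differences between -0.07 and 1.40.

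In LV, *TGFBR3* was again higher with estradiol in every nonbreeder. The helpers had 31.7 against 7.52 CPM (NOF007), 17.4 against 6.06 CPM (DVF008), 12.8 against 7.47 CPM (G4F019) and 12.3 against 8.42 CPM (WAF011), and the solitaire WEF001 had 16.4 against 10.7 CPM. The queens had 10.3 against 9.74 CPM (WAF014) and 8.47 against 12.1 CPM (DVF007). Each LV estradiol library of these 5 nonbreeders was above each of their LV vehicle libraries, while the libraries of the 2 queens overlapped. How many other tested genes separated in this way was not counted, and 2 queens are too few to compare the statuses.

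**Figure D3:**
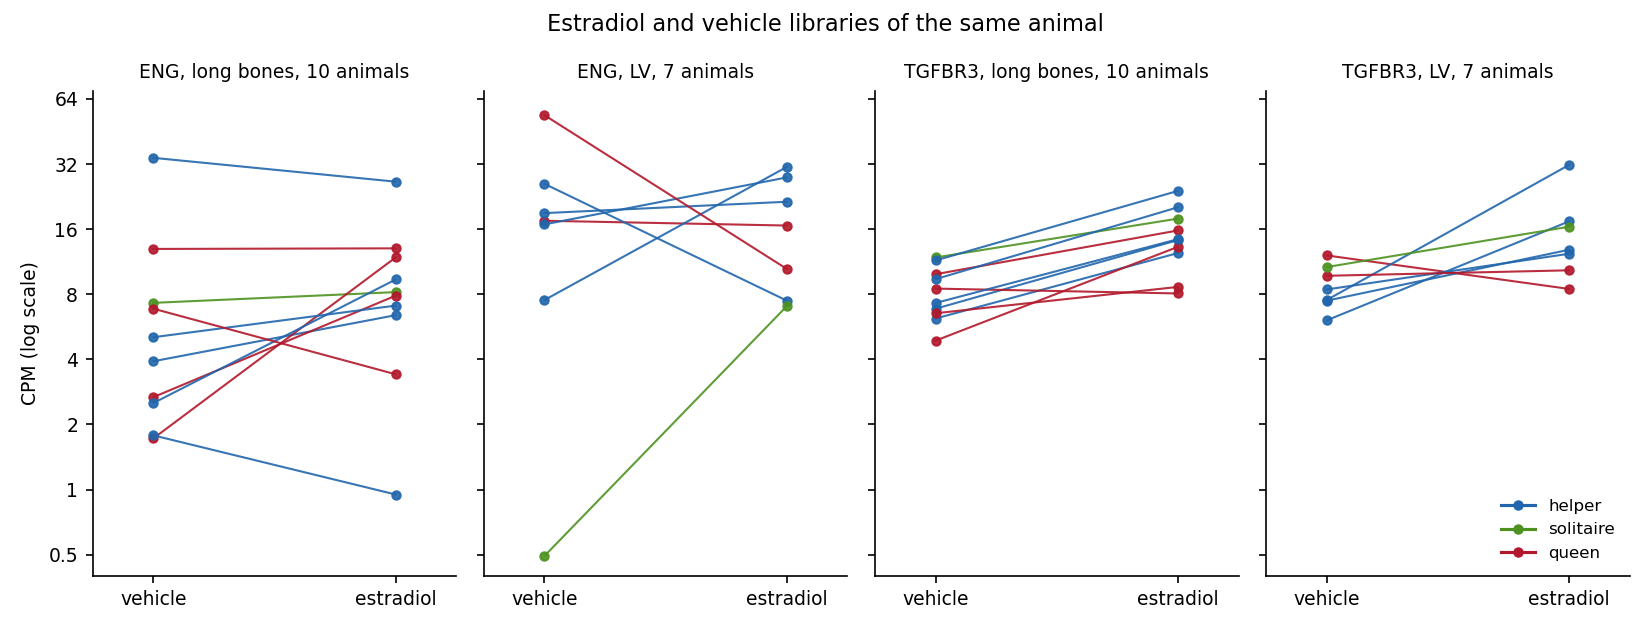
CPM (log scale) of *ENG* (left panels) and *TGFBR3* (right panels) in the vehicle and estradiol libraries of the same animal, for long bones (10 animals) and LV (7 animals), with a line per animal coloured by social status. *TGFBR3* lines go up in 9 of 10 long bone pairs and in 6 of 7 LV pairs, while *ENG* lines cross.

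The fitted *TGFBR3* difference with estradiol was 0.83 on the log2 scale in long bones (standard error 0.16; 95% interval 0.47 to 1.18; 1.77-fold) and 0.69 in LV (standard error 0.29; 95% interval 0.03 to 1.34; 1.61-fold). Its edgeR adjusted p was 1.00 in both, and 0% of tested genes were called in either bone type. By unadjusted p, *TGFBR3* ranked 2 of 11047 genes in long bones and 44 in LV, in comparisons with 129 and 55 genes at an unadjusted p under 0.05, where 552 are expected by chance. The long bone call turned on the method. DESeq2's Wald test put *TGFBR3* past the threshold, with an adjusted p of 0.00351, as 1 of 5 genes, while voom on all 47 libraries gave 0.78 with an adjusted p of 0.194, and the adjusted p over the alternatives ranged from 0.00351 to 1.00. Without MAF006 and NOF009, the queens whose long bone libraries were richest in leukocyte RNA, the fitted difference was 0.95. This fit was chosen after the values were seen and did not pass the threshold. The part of leukocytes in the difference was not tested. The difference between the LV and the long bone response was -0.12 (standard error 0.31; 95% interval -0.77 to 0.52; edgeR adjusted p = 1.00; 0% of genes called).

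When the matched libraries of both bone types were added per animal, a comparison made after the values were seen, *TGFBR3* was higher with estradiol by 0.72 on the log2 scale over 13 animals (standard error 0.17; 95% interval 0.37 to 1.07; edgeR adjusted p = 0.637). In that fit 0.0181% of tested genes were called, namely the 2 genes ENSFDAG00000014933 and ENSFDAG00000012821, both higher with estradiol, and *TGFBR3* ranked 8 by unadjusted p. DESeq2's Wald test called it, with an adjusted p of 0.0324. The response of queens minus that of nonbreeders in the same sums was -0.62 (standard error 0.31; 95% interval -1.29 to 0.05; edgeR adjusted p = 1.00; 0% of genes called), so a smaller response in queens was not shown by this test. Of the lists of cell markers, 0 of 34 entries passed the threshold with estradiol in either bone type, where 0% of all tested genes did. This count therefore does not show whether the mix of cells changed. Of the 12 leukocyte markers, 7 had a positive and 5 a negative fold change in each bone type (medians 0.15 in long bones and 0.04 in LV). The largest in LV was that of *LAPTM5*, at 0.71 (standard error 0.17).

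*ENG* had no common response to estradiol. In long bones it was higher in 7 of 10 animals, with log2 differences from -0.96 (WAF014) to 2.63 (LAF007), where it went from 1.72 to 11.8 CPM. In LV it was higher in 4 of 7, from 53.8 down to 10.5 CPM in WAF014 and from 0.493 up to 7.05 CPM in WEF001, the latter resting on 3 counts. The fitted differences were 0.52 in long bones (standard error 0.35; 95% interval -0.23 to 1.28) and 0.15 in LV (standard error 0.64; 95% interval -1.30 to 1.59), each with an edgeR adjusted p of 1.00. The LV value turned to -0.24 without WEF001. The LV minus long bone difference of the response was -0.36 (standard error 0.73; 95% interval -1.88 to 1.17). The LV interval includes a 2-fold change in either direction.

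The study's main contrast was between queens and nonbreeders. Its mixed model, which also took in days in culture and relatedness, found genes with a breeding status effect in long bones at an FDR of 10%. In LV it found none, and at the same FDR it found no effect of estradiol on any gene in either bone type. For the fits here, counts of each animal's libraries from the same bones were summed, and animals were compared within natal colonies. In long bones, *TGFBR3* of the queens ran from 6.01 through a median of 8.30 to 13.003 CPM (n = 5), and that of the nonbreeders from 5.66 through 11.8 to 17.6 CPM (n = 11). In 4 of the 5 sister pairs the queen had less, with 6.01 against 8.72 CPM in DV, 7.61 against 11.2 CPM in WA, 13.003 against 17.6 CPM in NO and 8.30 against 9.54 CPM in MA, while in LA the queen had 8.80 against 5.66 CPM. The fitted log2 difference was -0.28 (standard error 0.21; 95% interval -0.74 to 0.19; edgeR adjusted p = 0.732; 0% of genes called, with a smallest edgeR adjusted p of 0.105 over all tested genes). These sums mix treatments unevenly, since DVF007, LAF008 and MAF003 had no estradiol library from long bones and their sisters did. In vehicle libraries alone the queen had less *TGFBR3* in 5 of 5 pairs, by small differences between -0.21 and -0.04 on the log2 scale: 6.01 against 6.18 CPM in DV and 4.88 against 5.66 CPM in LA, for example. The fitted difference with vehicle libraries only was -0.19 (standard error 0.27; edgeR adjusted p = 1.00). Of the 12 leukocyte markers, 11 had a positive fold change in the same comparison (median 1.52), and 0 of the 9 stromal and osteoblast markers did (median -0.39), with 0 called in either list. The part of these cells in the co-receptor values was not tested.

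*ENG* in long bones ran from 5.05 through 6.46 to 17.5 CPM in queens and from 0.785 through 6.06 to 31.1 CPM in nonbreeders. Queens had more than their sister in 2 of 5 pairs, and the fitted log2 difference was -0.07 (standard error 0.29; 95% interval -0.71 to 0.56; edgeR adjusted p = 0.948). In LV (4 queens, 10 nonbreeders; 0% of genes called), the fitted differences were -0.30 for *ENG* (standard error 0.40; 95% interval -1.21 to 0.60) and 0.24 for *TGFBR3* (standard error 0.42; 95% interval -0.71 to 1.19), each with an edgeR adjusted p of 0.999. The LV value of *TGFBR3* rested on colony MA and its queen MAF006, whose only LV library had received estradiol, with 25.6 CPM against 6.70 CPM in the vehicle library of the sister MAF003. Without MAF006 it was -0.23, and without MAF003 it was -0.22. The same pair held the fewest *ENG* counts of any LV sums, 6 in MAF006 and 15 in MAF003.

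Solitaires and helpers were compared in the same fit. In long bones, *TGFBR3* ran from 9.54 through 12.95 to 14.6 CPM in the 4 solitaires and from 5.66 through 11.2 to 17.6 CPM in the 7 helpers. The fitted log2 difference was 0.09 (standard error 0.25; 95% interval -0.47 to 0.65; edgeR adjusted p = 0.911), and 0.00905% of tested genes (1 gene) were called. *ENG* differed by -0.02 (standard error 0.36; 95% interval -0.83 to 0.78; edgeR adjusted p = 0.983). These long bone sums mix treatments unevenly, since 5 of the 7 helpers but 1 of the 4 solitaires had an estradiol library. In long bone vehicle libraries, the mean log2 CPM of *TGFBR3* was 3.58 ± 0.23 (SD) in solitaires and 3.07 ± 0.45 in helpers. Alternatives other than leaving out 1 animal gave *TGFBR3* differences of 0.09 to 0.36, with 0 past the threshold. In LV (4 solitaires, 6 helpers; 0% of genes called), the differences were 0.42 for *ENG* (standard error 0.49; 95% interval -0.71 to 1.54) and -0.17 for *TGFBR3* (standard error 0.56; 95% interval -1.47 to 1.12), each with an edgeR adjusted p of 0.998. Both LV values changed sign with vehicle libraries only, to -0.76 and 0.62. The *TGFBR3* value turned on single animals. WEF001 had 14.3 CPM over a vehicle and an estradiol library, the helper WEF002 of the same colony had 5.25 CPM in a vehicle library alone, and without either of them the value was -1.05. Without MAF003 it was 0.56, and without MAF006 it was 0.55.

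**Figure D4:**
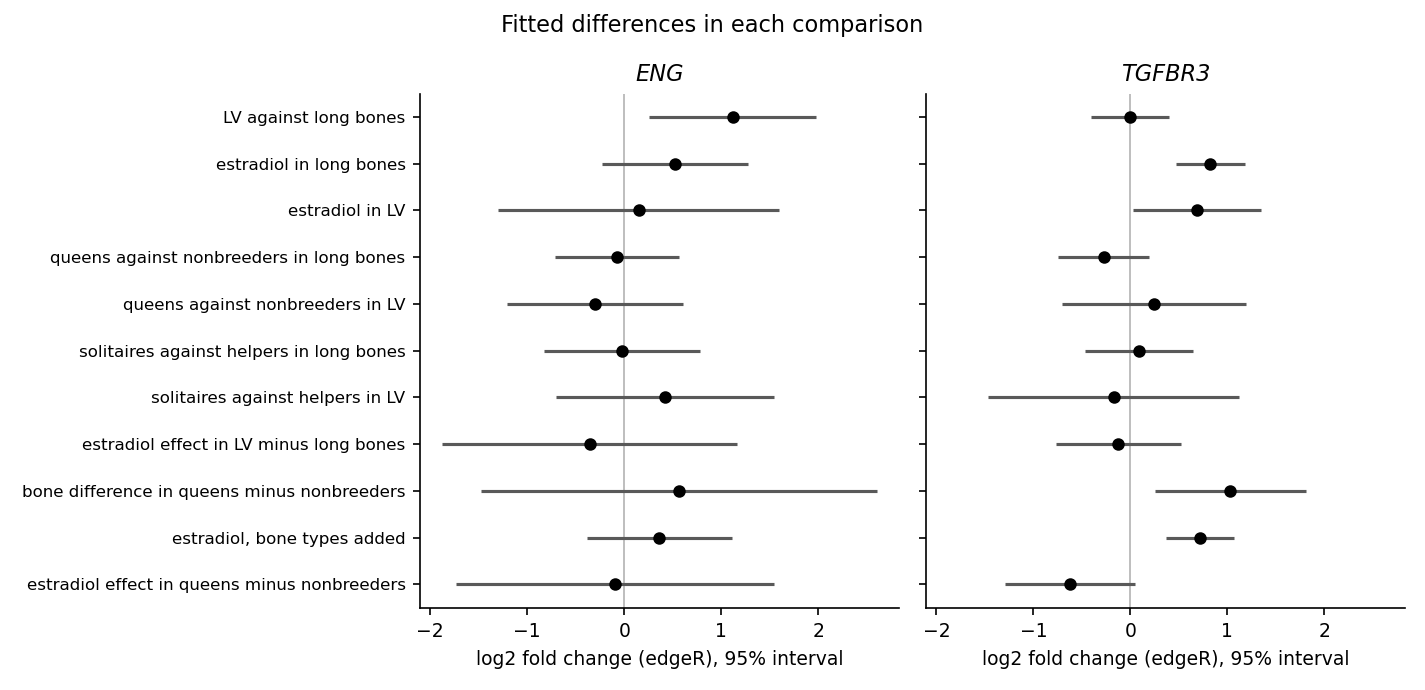
Fitted log2 fold changes (points, edgeR quasi-likelihood) with 95% intervals (lines) of *ENG* (left) and *TGFBR3* (right) in the 9 comparisons of the design and, in the 2 lowest rows, the 2 comparisons added after the values were seen. The intervals of *TGFBR3* lie above 0 for estradiol in both bone types and their sum and for the bone difference between queens and nonbreeders, and that of *ENG* lies above 0 for LV against long bones, but each had an edgeR adjusted p above 0.10.

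The other genes of the pathway were taken from a list of 21. Only the 1147 genes with a symbol here could enter it, so it holds a part of the pathway. Its counts and medians describe that part. *COL1A1* is also on the stromal and osteoblast list. Of the 21, 19 had enough counts to be tested. Between LV and long bones, 1 was higher in LV and 1 lower, with 6.83% of all tested genes called. *ZEB1*, a transcriptional repressor that TGF-beta induces, rose by 0.67 on the log2 scale (standard error 0.13; edgeR adjusted p = 0.00586). *ACVR2A*, the activin type II receptor, fell by 0.66 (standard error 0.14; edgeR adjusted p = 0.0101). The ligand *TGFB3* had a log2 fold change of -0.48, the signalling receptor *TGFBR1* of -0.12 and *LTBP1*, which binds latent TGF-beta to the matrix, of -0.43, none past the threshold. The median over the 19 was -0.23, against -0.04 over all tested genes.

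With estradiol, 0 of the 19 passed the threshold in either bone type, where 0% of all tested genes did. The medians were 0.03 in long bones and -0.00 in LV, against 0.00 and -0.00 over all tested genes. The largest values in long bones were those of *HIPK2*, a nuclear kinase, at 0.57 (standard error 0.46), and of *NRROS*, which holds latent TGF-beta on myeloid cells, at 0.32 (standard error 0.33). In LV they were those of the contractile gene *CNN1*, at -0.48 (standard error 0.61), and of *HIPK2*, at -0.35 (standard error 0.53). Between queens and nonbreeders, 0 of the 19 passed in long bones or LV, and 0% of all tested genes did. *NRROS* was furthest from 0, with 1.26 in long bones (standard error 0.47) and 1.15 in LV (standard error 0.94), followed in long bones by the secreted antagonist *GREM1* at -0.83 (standard error 0.35) and in LV by *TGFB3* at -0.66 (standard error 0.50). Between solitaires and helpers, 0 of the 19 passed, with 0.00905% of all tested genes called in long bones and 0% in LV. In long bones, 16 of the 19 had a positive fold change, and the median was 0.51, against -0.00 over all tested genes. In the same comparison 7 of 9 stromal and osteoblast markers had a positive fold change (median 0.67) and 0 of 5 proliferation markers did (median -0.46), with 0 called, and their part in the pathway values was not tested. In that comparison *CNN1* had 1.28 (standard error 0.70) and the secreted antagonist *TSKU* had 1.02 (standard error 0.27), and in LV *CNN1* had 1.56 (standard error 1.08) and the matrix gene *EMILIN1* 0.54 (standard error 0.61).

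Likeness to each co-receptor was measured as Spearman's rho of log2 CPM over the 47 libraries, which share animals, colonies and culture conditions, so it is given as a description. *ENG* and *TGFBR3* did not follow each other (rho = 0.09). *ENG* moved with a large part of the transcriptome: of the 11046 other tested genes, 2589 (23.4%) had a rho above 0.5 with it and 1564 (14.2%) a rho below -0.5. For *TGFBR3* these were 7 genes and 0 genes. The highest rho of any tested gene was 0.93 with *ENG*, for ENSFDAG00000009138, and 0.59 with *TGFBR3*, for ENSFDAG00000006119.

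**Figure D5:**
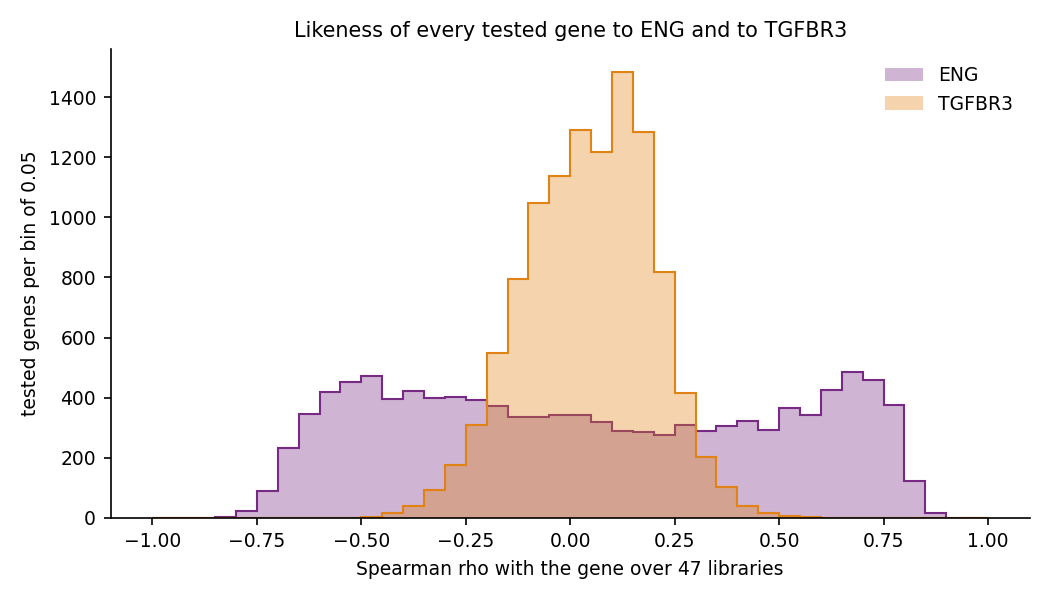
Number of tested genes in each bin of 0.05 of Spearman's rho with *ENG* (purple) or with *TGFBR3* (orange) over 47 libraries. The *ENG* distribution is broad, with 2589 genes above 0.5 and 1564 below -0.5, whereas that of *TGFBR3* lies close around its median of 0.05.

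Among the 1116 other tested genes with a symbol, the 5 most like *ENG* were the nucleotide sugar transporter gene *SLC35A2* (rho = 0.86), the triglyceride lipase gene *PNPLA2* (0.85), *SCRN1* (0.85), the N-glycan branching enzyme gene *MGAT1* (0.84) and the sphingosine kinase gene *SPHK1* (0.84). Within bone types *MGAT1* reached 0.89 in long bones (26 libraries) and 0.95 in LV (21 libraries), and *PNPLA2* reached 0.93 and 0.92. The 3 lowest were the glutathione transferase gene *GSTK1* (-0.80), the mitochondrial import gene *TIMM17A* (-0.79) and the kinase gene *MARK3* (-0.77). After removing the mean of each bone type and treatment, rho lay between 0.81 and 0.93 for these 5 and between -0.83 and -0.80 for these 3. For *TGFBR3* the 5 highest were *BMS1* (0.49), *PRSS35* (0.46), *RAD51B* (0.43), *CREB5* (0.42) and *TCF4* (0.42), and the 3 lowest were *ZC2HC1A* (-0.40), *FAM241B* (-0.39) and *FDX1* (-0.36). After the same removal of means the order changed, with 0.38 for *BMS1*, 0.33 for *RAD51B*, 0.58 for *PRSS35*, 0.52 for *CREB5* and 0.53 for *TCF4*.

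Of the 19 tested pathway genes, 10 had a rho above 0.5 with *ENG*, against 23.4% of all tested genes, and 0 had one above 0.5 with *TGFBR3*. The highest with *ENG* were *TSKU* (0.79), *HIPK2* (0.72), *TGFBR1* (0.70) and the secreted protein gene *SCUBE3* (0.69), and *TGFB3* had 0.61. With *TGFBR3* the pathway genes lay between -0.20 (*SMAD2*) and 0.37 (*ZEB2*). Among sums over a list, rho with *ENG* was 0.32 for the pathway list, 0.39 for the stromal and osteoblast list, -0.11 for the leukocyte list and -0.50 for the 5 proliferation genes. CPM was summed, so genes at high levels weigh most, such as *THBS1* in the pathway list (median 4653 CPM, rho = 0.08). Single stromal markers reached values like those of single pathway genes, with 0.71 for *DDR2* and 0.60 for *MMP2*. *COL1A1*, at 0.53, is on both lists. With the sum of 5 endothelial genes, 114 to 387 CPM over the libraries, rho was 0.01. That sum mostly reflects *RHOJ* (median 160 CPM, rho = -0.13). The other endothelial genes, at lower levels, had 0.58 (*ICAM2*), 0.38 (*PTPRB*), 0.23 (*ANGPT2*) and 0.07 (*CLEC1A*). For *TGFBR3* the sums gave between -0.11 (endothelial) and 0.25 (leukocyte). With total counts, rho over the 47 libraries was 0.32 for *ENG* and -0.10 for *TGFBR3*, but for *TGFBR3* it was -0.59 in the 16 long bone vehicle libraries and 0.32 in the 13 LV vehicle libraries.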

How the data were processed

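Libraries were grouped by the social status, bone type and treatment in the sample labels. Natal colony was read from the animal names, and animals of a colony are called sisters here. By genotype, the paper found different fathers for G1F022 and G1F025, and for G4F019 and G4F020. The deposited table holds raw counts per gene: the authors trimmed reads with cutadapt 2.3, aligned them to the Damaraland mole-rat assembly with STAR and ran HTSeq on the unique alignments with the Ensembl annotation. No strand setting was given in the sources used here, so overlapping and antisense genes are uncertain, as are close paralogs. Gene lengths of this build were not used here, so levels of different genes were not compared, and no sequence is shown.

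CPM is counts per 1000000 of the library total, and log2 CPM used a prior count of 2. Tests covered the 11047 of 33562 genes that reached 2 CPM in 25% or more of the 47 libraries; the authors had filtered on TPM. Tests were two-sided edgeR 4.0.16 quasi-likelihood fits (TMM) in R 4.3.3, with Benjamini-Hochberg adjustment over all tested genes and an FDR of 10%. DESeq2 1.42.0 and limma 3.58.1 (voom) were alternatives, and plots used matplotlib 3.10.9. Animal was the block for bone type and estradiol. Natal colony was the block for status, with the libraries of an animal added. The block was checked by the correlation of deviations from group means: 0.218 to 0.826 between sisters in long bones and 0.294 to 0.608 in LV, against medians of -0.118 and -0.158 between other animals, and -0.02 to 0.92 and -0.01 to 0.80 between the treatments of an animal. Days in culture were not a label and did not enter the fits. No libraries were copies of each other (86 pairs within groups, lowest chi-squared per degree of freedom 26.2). Scripts were tested on simulated data.

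*ENG* and *TGFBR3*, the gene lists and the comparisons were chosen with earlier results of these data known. Symbols came from 1594 rows of the paper's gene list, which gave 1147 genes a symbol. The named genes were both co-receptors, the 5 highest and 3 lowest by likeness to each, and members of the list of 21 pathway genes past the threshold or, where there were none, the 2 with the largest fold change. Other pathway and marker genes were named after their values were seen. Likeness was also computed over deviations from the means of bone type and treatment.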

Additional observations from a re-analysis of the deposited data

Results flagged for a closer look

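In 1 of the 16 sets of libraries examined (each co-receptor in every combination of bone type, status and treatment with 4 to 10 libraries), a single library stood apart from the rest by Dixon's ratio of its gap to the whole range, taken on log2 CPM. *ENG* in vehicle-treated long bone cells of the solitaire WEF001 was 0.785 CPM, and its ratio was 0.905 against a critical value of 0.829 for the 4 long bone vehicle libraries of solitaires. On CPM, a scale tried after the data were seen, the ratio was 0.799, below the critical value. Chance gives such a library in about 1 of 20 sets. The sister WEF002 also had low *ENG* in long bones, with 1.78 CPM in the vehicle library and 0.949 CPM in the estradiol library.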

How the results depend on the processing

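Values are log2 differences and, for counts, genes past an FDR of 10%. Over 58 alternatives that kept all or most animals, *ENG* kept its direction and its side of the threshold in 45 and *TGFBR3* in 49, and over 116 fits that left out 1 animal each, *ENG* did in 96 and *TGFBR3* in 102. The cause of the exceptions was not tested. For *ENG* between LV and long bones, the difference passed without the filter on low counts (1.13), by DESeq2's Wald test (1.099), with all libraries of an animal added in each bone type (0.91, edgeR adjusted p = 0.0969), and without the solitaires MAF003 and WEF001, chosen after the values were seen (1.39). Leaving out 1 animal gave 0.93 to 1.38. For *TGFBR3* with estradiol, only DESeq2's Wald test passed, in long bones (0.82) and with bone types added (0.72); leaving out 1 animal in long bones gave 0.76 to 0.92.

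Directions turned in the following results. For *TGFBR3* between LV and long bones, DESeq2 size factors gave 0.0034, no filter 0.0016, DESeq2's Wald test 0.0057, all libraries added 0.11, the fit without MAF003 and WEF001 0.040, and leaving out 1 animal -0.093 to 0.075. For *ENG* with estradiol in LV, voom gave -0.21 and leaving out 1 animal -0.24 to 0.57. Between queens and nonbreeders, *ENG* in long bones was 0.0085 by voom and -0.37 to 0.11 leaving out 1 animal. In LV it was 0.40 with vehicle libraries only and -0.86 to 0.0070 leaving out 1 animal, and *TGFBR3* in LV was -0.23 to 0.44. Between solitaires and helpers, *ENG* in long bones was 0.11 with vehicle libraries only and -0.24 to 0.14 leaving out 1 animal, and *TGFBR3* was -0.033 to 0.25. In LV, vehicle libraries only gave -0.76 for *ENG*, and *TGFBR3* was 0.14 by voom, 0.62 with vehicle libraries only and -1.05 to 0.56 leaving out 1 animal. For the LV minus long bone difference of the estradiol response, leaving out 1 animal gave -0.80 to 0.18 for *ENG* and -0.33 to 0.076 for *TGFBR3*. For the bone difference in queens minus nonbreeders, *ENG* was -0.20 by voom and -0.23 to 1.47 leaving out 1 animal.

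Without the replicate block of animal or colony, *ENG* turned to -0.25 for estradiol in LV, to 0.24 between queens and nonbreeders in long bones and to -0.30 between solitaires and helpers in LV. Genes past the threshold without the block numbered 251 between bone types, 1 between queens and nonbreeders in long bones and 0 between solitaires and helpers in long bones. The block changed no call of *ENG* or *TGFBR3*.

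Counts of genes past the threshold moved with the method. Between bone types there were 335 by voom, 2179 with all libraries added and 563 to 1385 leaving out 1 animal (1385 without WAF011). With estradiol there were 7 in long bones without the filter, 5 by DESeq2's Wald test and 3 by voom, 6 in LV by DESeq2's Wald test and 3 by voom, and with bone types added 14 by DESeq2's Wald test and 11 without the filter. Between queens and nonbreeders in long bones there were 1015 without the filter, 391 by DESeq2's Wald test, 728 by voom, 76 with vehicle libraries only and 0 to 271 leaving out 1 animal (271 without DVF007 or DVF008). In LV there were 378 without the filter, 105 by DESeq2's Wald test, 158 by voom and 0 to 16 leaving out 1 animal. Between solitaires and helpers in long bones there were 9 without the filter, 139 by DESeq2's Wald test, 62 by voom, 0 with vehicle libraries only and 0 to 8 leaving out 1 animal, and in LV 9, 6, 5 and, leaving out 1 animal, 0 to 9. For the bone difference in queens minus nonbreeders there were 11 without the filter, 2 by DESeq2's Wald test, 1 by voom and 0 to 1 leaving out 1 animal. Counts under 10 in 4 libraries limit the precision of *ENG* there. Likeness over deviations from the means of bone type and treatment, tried after the data were seen, moved 4 of 16 values, all for *TGFBR3*.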
